A study of Mus musculus with 9 samples.

Results

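The 10 genes described here, *Atf4*, *Atf5*, *Ddit3*, *Trib3*, *Ppp1r15a*, *Asns*, *Psat1*, *Slc3a2*, *Chac1* and *Sesn2*, encode the transcription factor ATF4 and components of the integrated stress response around it. They were chosen by symbol from the 22064 genes listed in the deposited tables, and all 10 were found and passed the filter on low counts. Bulk RNA-seq had been performed on 9 libraries of neutrophils sorted from the lungs of female BALB/c mice, with 3 libraries in each of 3 groups. Ly6Ghigh and Ly6Glow neutrophils came from lungs at the MACRO (macrometastatic) stage after 4T1-LM3 cells had been injected orthotopically into the mammary fat pad, and Ly6Ghigh neutrophils of the third group, NL, came from normal lung tissue of mice without tumor. 4T1-LM3 cells descend from 4T1, a mammary carcinoma line of the mouse, and home to the lung. The neutrophils had been sorted as CD45+ from digested lung. All mice shared the BALB/c strain and no genetic change is named. They had been bought as young adults. Their age when the lungs were taken, and whether a library was made from 1 mouse or from pooled mice, is not given in the sources used here, so the p-values below measure only the spread between these libraries.

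In the integrated stress response, stress-sensing kinases phosphorylate the translation initiation factor eIF2 on its alpha subunit. General protein synthesis then falls, while the mRNA of *Atf4*, which carries upstream open reading frames, is translated more. ATF4 protein pairs with C/EBP proteins and other leucine zipper factors and raises the transcription of genes for amino acid synthesis, amino acid transport, tRNA charging, redox balance and cell death. Because ATF4 is controlled largely at translation, the level of *Atf4* mRNA is no measure of ATF4 protein. Neutrophils are short-lived granulocytes that hold little RNA at maturity, and their precursors make granule proteins in large amounts.

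ATF4 and its C/EBP partners are known to bind composite elements in the promoters of their target genes, and the promoters of the 10 genes were therefore searched for the 8-base motif TGATGNAA on both strands (reverse complement TTNCATCA), where N is any base. The RefSeq promoters of GRCm38.p6 ran from 250 bases before to 50 bases after an annotated start, and all 10 genes had an entry. Of the 10 genes, 3 held the motif, against 4.51% of the 27025 genes in the promoter table and 2.97% of the tested genes that had an entry. The upstream 250 bases of *Asns*, *Chac1* and *Slc7a11* (which encodes the partner chain of the *Slc3a2* product in cystine uptake) and a window of 30 bases inside the *Trib3* transcript are shown because these are the matches among the members and their closest partner, with the motif in capitals and each sequence on the strand of its gene:

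Asns, minus strand, chr6:7693210-7693459, GRCm38.p6: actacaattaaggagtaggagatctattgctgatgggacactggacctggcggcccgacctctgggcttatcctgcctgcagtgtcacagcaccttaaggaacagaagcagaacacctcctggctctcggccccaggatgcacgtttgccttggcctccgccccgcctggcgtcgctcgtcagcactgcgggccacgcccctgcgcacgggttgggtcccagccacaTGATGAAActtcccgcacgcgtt

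Chac1, plus strand, chr2:119350992-119351241, GRCm38.p6: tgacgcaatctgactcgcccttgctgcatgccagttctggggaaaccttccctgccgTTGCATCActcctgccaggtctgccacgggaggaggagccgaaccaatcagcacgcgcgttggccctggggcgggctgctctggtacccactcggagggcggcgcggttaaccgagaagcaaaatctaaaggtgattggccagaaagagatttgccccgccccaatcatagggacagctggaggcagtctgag

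Trib3, minus strand, chr2:152344028-152344057, GRCm38.p6: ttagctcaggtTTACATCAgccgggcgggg

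Slc7a11, minus strand, chr3:50443614-50443863, GRCm38.p6: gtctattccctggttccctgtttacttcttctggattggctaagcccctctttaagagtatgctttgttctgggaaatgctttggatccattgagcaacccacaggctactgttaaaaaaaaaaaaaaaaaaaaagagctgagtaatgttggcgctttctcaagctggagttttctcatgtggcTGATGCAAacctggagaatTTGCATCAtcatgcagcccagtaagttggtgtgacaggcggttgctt

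The match in *Asns* was TGATGAAA at positions -23 to -16 from the gene start, and that in *Chac1* was TTGCATCA at -193 to -186. In *Trib3* the match was TTACATCA at positions 15 to 22 after the start. *Slc7a11* held TGATGCAA at -66 to -59 and TTGCATCA at -47 to -40, in opposite orientations. The windows of *Atf4*, *Atf5*, *Ddit3*, *Ppp1r15a*, *Psat1*, *Slc3a2* and *Sesn2* did not hold these letters. The window of *Slc3a2*, chr19:8713848-8714147, lay inside the gene. On the minus strand this gene begins at 8723369, and that start was not searched. A match here describes sequence only, since binding was not measured.

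The libraries held between 15267177 and 17841807 estimated counts. Among the replicates, NL replicate 2 lay farthest from its group (chi-square per degree of freedom 5.358 and 4.086 against the other NL libraries, 1.395 to 2.502 for all other pairs), and leaving it out changed no call of the 10 genes. The neutrophil genes of a list of 9 (among them *S100a8*, *Csf3r*, *Cxcr2*, *Mmp8* and *Ly6g*) were abundant in each group, with a summed level of 70970 to 72810 CPM (counts relative to the TMM-scaled library size) in MACRO Ly6Ghigh, 76260 to 77970 in MACRO Ly6Glow and 18250 to 18510 in NL libraries. *Ly6g* itself stood at a mean of 373.7 CPM in the libraries labelled MACRO Ly6Ghigh and 393.9 CPM in those labelled Ly6Glow, and at 119.4 CPM in NL. The log2 fold change of *Ly6g* between Ly6Glow and Ly6Ghigh was 0.08 (edgeR adjusted p = 0.0577) on the TMM scale and turned to -0.16 with library totals (adjusted p = 0.000258), under the fold limit on either scale. The NL libraries stood apart in markers of several other lung cells. All 7 endothelial and fibroblast markers were called lower in both MACRO groups than in NL, and their sum was 121.8 to 128.6 CPM in MACRO Ly6Ghigh, 145.2 to 153.8 in Ly6Glow and 889.8 to 947.1 in NL. Epithelial and tumor cell markers summed to 91.18 to 96.22, 93.69 to 99.34 and 927.8 to 1030 CPM in the same order, with 7 of 7 and 6 of 7 called lower than in NL. Alveolar macrophage markers summed to 1573 to 1624, 350.6 to 370.9 and 2076 to 2121 CPM, with 9 and 11 of 12 called lower than in NL. All 6 dendritic cell markers were called lower in both MACRO groups. Eosinophil and basophil markers went the other way, with 8 and 6 of 9 called higher, as did 3 of 5 plasma cell markers in Ly6Ghigh. No marker with values was at 0 in all 9 libraries, and of 6 erythroid markers 5 had values. The part of these cells in the comparisons with NL was not tested.

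**Figure D1:**
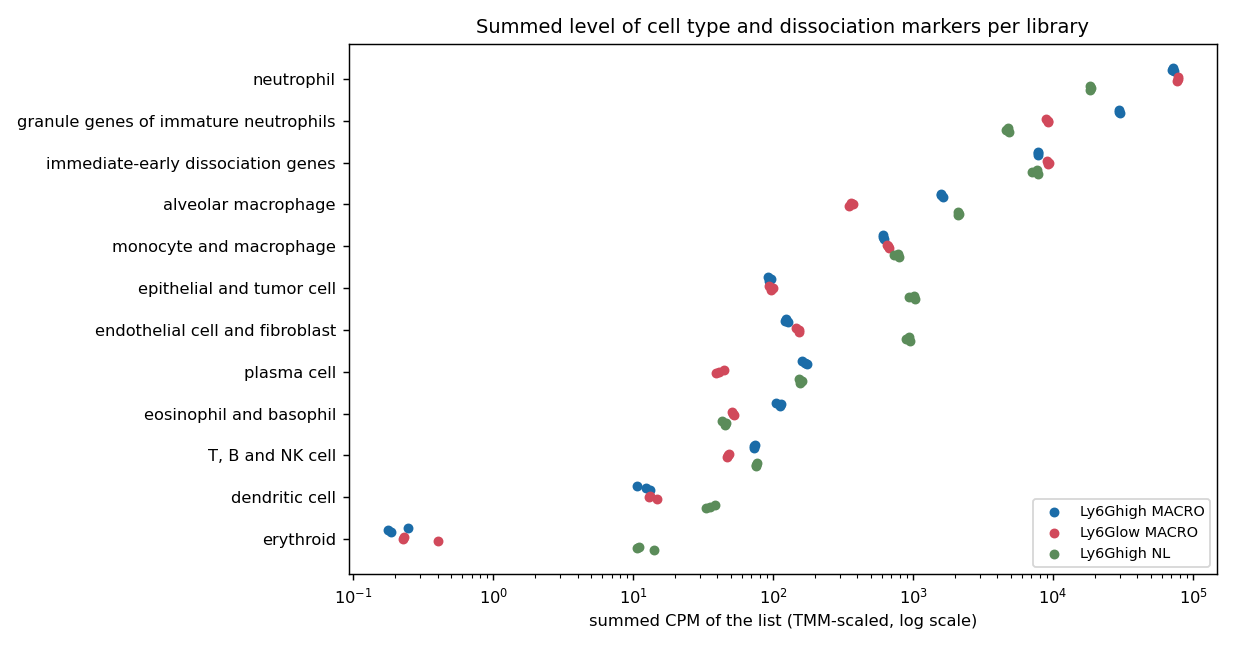
Summed CPM (log scale) of each marker list, with 1 point per library and 3 libraries per group. Neutrophil markers were lowest and epithelial, endothelial and fibroblast markers highest in the 3 NL libraries, and granule genes of immature neutrophils were highest in the 3 MACRO Ly6Ghigh libraries.

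CPM values were scaled with TMM factors, which ran from 0.803 in Ly6Glow to 1.32 in NL libraries. They are meant to correct for a few very abundant genes taking up reads, on the premise that most genes do not differ. Against NL 62.9% and 69.5% of all tested genes were called in Ly6Ghigh and Ly6Glow. That premise is therefore in doubt there, and which scale is right was not tested. With library totals alone, the median log2 fold change of all tested genes moved from -0.09 to -0.55 for MACRO Ly6Ghigh against NL, from -0.16 to -0.86 for Ly6Glow against NL and from -0.04 to -0.28 for Ly6Glow against Ly6Ghigh. Differences below are given on the TMM scale, each to be read against these medians, and the sentence says so where library totals or the deposited FPKM values (fragments per kilobase of transcript, scaled to sequencing depth) turn the direction or the call. A gene was called when its adjusted p in edgeR's quasi-likelihood test was at most 0.05 and its log2 fold change exceeded 0.58 in either direction. Shares of all tested genes called are given for the TMM scale only. Counts of calls with library totals or on FPKM stand without such a share. The median of all tested genes is lower on those scales, so a surplus of lower calls there is not read as a result about the genes counted. In bulk RNA, fewer cells of a type and less RNA per cell cannot be told apart.

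In each comparison the called genes among the 10 went in both directions. Between MACRO Ly6Ghigh and NL neutrophils 5 of 10 were called, 2 higher and 3 lower in MACRO, where 62.9% of all 14108 tested genes were called (26.3% higher and 36.6% lower). With library totals 1 was called higher and 6 lower, and on log2(FPKM + 1) 1 and 5. Between Ly6Glow and NL 6 of 10 were called, 4 higher and 2 lower, against 69.5% of all tested genes (28.7% higher and 40.8% lower), and library totals gave 1 higher and 3 lower. Between Ly6Glow and Ly6Ghigh of the MACRO lung 2 of 10 were called, *Sesn2* higher and *Psat1* lower in Ly6Glow, against 25.2% of all tested genes (9.29% higher and 15.9% lower). Each count lay near the number that the share of all genes would give. By adjusted p alone 8, 10 and 7 of the 10 genes passed in the 3 comparisons, where 84.6%, 86.8% and 55.8% of all tested genes did. Groups did not overlap for 8, 10 and 7 of the 10 genes, and for 85.2%, 86.8% and 62.1% of all tested genes. The median log2 fold change of the 10 genes was -0.20, 0.28 and 0.32 in the 3 comparisons, beside -0.09, -0.16 and -0.04 for all tested genes, and with library totals it was -0.66, -0.42 and 0.09, beside -0.55, -0.86 and -0.28, so that the second changed sign. The comparisons share libraries and are not independent of each other.

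**Figure D2:**
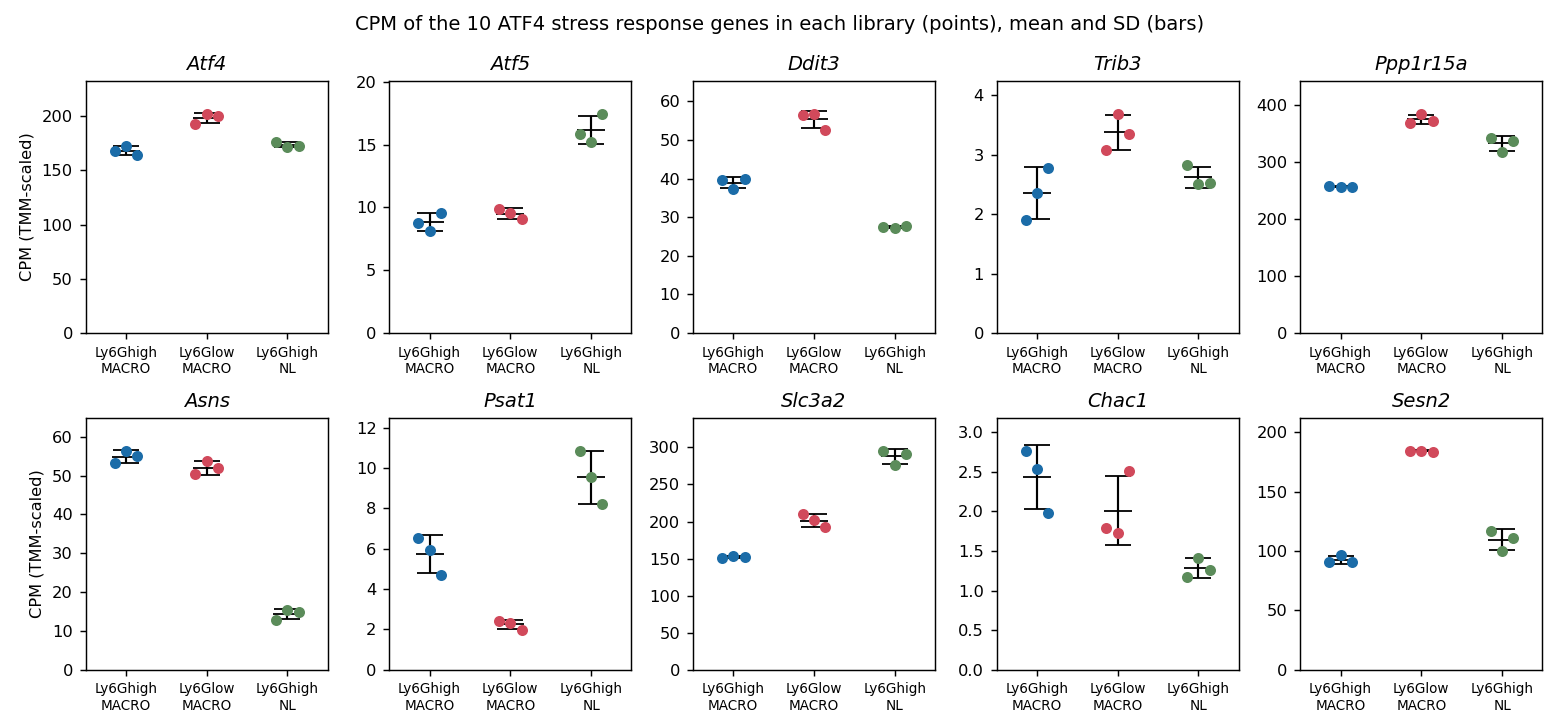
CPM of the 10 genes (TMM-scaled, linear axis from 0), with 1 point per library and bars for the mean and SD of 3 libraries per group. *Asns* was high in both MACRO groups, *Sesn2* was highest in Ly6Glow and *Psat1* lowest in Ly6Glow, whereas *Atf4* differed little.

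*Atf4* (Gene ID 11911, chr15:80255184-80257545, GRCm38.p6), which encodes the central transcription factor, stood at 168.1, 172.5 and 163.8 CPM in the MACRO Ly6Ghigh libraries, 193, 202.1 and 200.1 in the Ly6Glow libraries and 176.1, 171.9 and 172.4 in the NL libraries. The 3 Ly6Glow libraries were the highest, and the Ly6Ghigh and NL libraries overlapped. Its log2 fold change was -0.04 (SE 0.0352, adjusted p = 0.24) between Ly6Ghigh and NL, and 0.24 (SE 0.036, adjusted p = 7.09e-06) between Ly6Glow and Ly6Ghigh, under the fold limit. Between Ly6Glow and NL it was 0.19 (SE 0.0354, adjusted p = 3.08e-05) on the TMM scale and turned to -0.51 with library totals and on log2(FPKM + 0.1). Mean FPKM was 108.5 ± 2.72 in Ly6Ghigh and 108.5 ± 2.83 in Ly6Glow (SD, n = 3), with 154.1 ± 0.942 in NL.

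*Atf5* (chr7:44812256-44816658), a related leucine zipper factor whose mRNA is also under translational control and which is linked to the mitochondrial stress response, fell in both MACRO groups. Its CPM was 8.796, 8.087 and 9.533 in Ly6Ghigh, 9.909, 9.558 and 9.072 in Ly6Glow and 15.85, 15.24 and 17.44 in NL. Each NL library lay above each MACRO library, and the MACRO groups overlapped. The log2 fold change against NL was -0.88 (SE 0.0863, adjusted p = 4.14e-09) in Ly6Ghigh and -0.77 (SE 0.09, adjusted p = 6.59e-08) in Ly6Glow. Between Ly6Glow and Ly6Ghigh the value was 0.11 (adjusted p = 0.381) and turned to -0.12 with library totals. Exons of *Atf5* share 82 bases with *Il4i1* and *Nup62* on the opposite strand in the GENCODE annotation.

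*Ddit3* (chr10:127290793-127296291) encodes CHOP, a factor that ATF4 induces and that promotes cell death under lasting stress. It was measured at 39.74, 37.31 and 39.8 CPM in Ly6Ghigh, 56.53, 56.74 and 52.68 in Ly6Glow and 27.53, 27.15 and 27.76 in NL. No 2 groups overlapped, in the order NL, Ly6Ghigh, Ly6Glow. It was called 2.012-fold higher in Ly6Glow than in NL (log2 1.01, SE 0.0535, adjusted p = 7.83e-14), but this was 0.31 with library totals and lost the call. The difference between Ly6Ghigh and NL was 0.50 (SE 0.0542, adjusted p = 1.9e-08), under the fold limit, and turned to -0.02 on log2(FPKM + 0.1). That between Ly6Glow and Ly6Ghigh was 0.51 (SE 0.0531, adjusted p = 3.83e-08), also under the limit. Its exons share 68 bases with *Mars* and 13 with *Gm4189* on the opposite strand.

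*Trib3* (chr2:152337425-152344060), a pseudokinase gene that ATF4 and CHOP induce and whose product limits ATF4 activity, was low. It had 1.907, 2.361 and 2.785 CPM in Ly6Ghigh, 3.087, 3.688 and 3.354 in Ly6Glow and 2.829, 2.51 and 2.524 in NL, from 31 to 63 estimated counts a library. Ly6Glow libraries were above the others, which overlapped. No comparison called it on the TMM scale. The log2 fold change was -0.16 (adjusted p = 0.404) for Ly6Ghigh against NL, which library totals moved to -0.62 (adjusted p = 0.00228) and called, as did log2(FPKM + 0.1) at -0.59. For Ly6Glow against NL it was 0.37 (adjusted p = 0.0498), which library totals turned to -0.33. Between Ly6Glow and Ly6Ghigh it was 0.52 (SE 0.183, adjusted p = 0.0192) and among the alternatives run passed the fold limit only without Ly6Ghigh replicate 3 (0.66) and with DESeq2's size factors or test (0.59).

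*Ppp1r15a* (chr7:45522917-45526268) encodes GADD34, the subunit that directs phosphatase 1 to eIF2 alpha and so ends the response. Its CPM was 258, 255.3 and 256 in Ly6Ghigh, 368.4, 383.8 and 371.6 in Ly6Glow and 342.4, 317.6 and 336.7 in NL. The groups did not overlap, with Ly6Ghigh lowest. It differed by 0.55 between Ly6Glow and Ly6Ghigh (SE 0.0351, adjusted p = 1.3e-11), just under the fold limit, and with DESeq2's size factors by 0.61, which was called. Against NL it was -0.37 in Ly6Ghigh (adjusted p = 1.48e-09), which library totals moved to -0.84 and called, and 0.17 in Ly6Glow (adjusted p = 7.97e-05), which library totals turned to -0.53. *Ppp1r15a* is also on the list of 12 immediate-early genes that tissue digestion can induce. That list summed to 7784 to 7846 CPM in Ly6Ghigh, 8974 to 9415 in Ly6Glow and 7071 to 7838 in NL. Between Ly6Glow and Ly6Ghigh 4 of the 12 were called up and 3 down, and its part in the *Ppp1r15a* difference was not tested. Its exons share 12 bases with *Tulp2* on the opposite strand.

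*Asns* (Gene ID 27053, chr6:7675165-7693209) showed the greatest difference from NL among the 10 genes in MACRO Ly6Ghigh cells. It encodes asparagine synthetase, which makes asparagine from aspartate and glutamine and is a classic ATF4 target. The libraries held 53.27, 56.43 and 55.03 CPM in Ly6Ghigh, 50.28, 53.88 and 51.99 in Ly6Glow and 12.93, 15.33 and 14.78 in NL. Each MACRO library lay above each NL library by more than 3 times, and the MACRO groups overlapped. The fold was 3.827 in Ly6Ghigh (log2 1.94, SE 0.0622, adjusted p = 1.15e-17) and 3.629 in Ly6Glow (log2 1.86, SE 0.0645, adjusted p = 3.59e-17). Both calls held with library totals, at 1.47 and 1.16. Between Ly6Glow and Ly6Ghigh it was -0.08 (SE 0.0558, adjusted p = 0.257), and -0.31 with library totals (adjusted p = 6.29e-05), under the fold limit on either scale. The granule genes of immature neutrophils were also higher in MACRO lungs, with 9 of 9 called in Ly6Ghigh and 8 of 9 in Ly6Glow against NL (summed CPM 29560 to 29980, 8965 to 9236 and 4572 to 4808 in the 3 groups), and their part in the *Asns* difference was not tested.

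*Psat1* (Gene ID 107272, chr19:15905123-15925059) encodes the aminotransferase of the serine synthesis pathway and was called in every comparison. Its CPM was 6.52, 5.962 and 4.704 in Ly6Ghigh, 2.437, 2.333 and 1.982 in Ly6Glow and 10.87, 9.536 and 8.202 in NL. The groups did not overlap, falling from NL through Ly6Ghigh to Ly6Glow. Psat1 was 1.663-fold lower in Ly6Ghigh than in NL (log2 -0.73, SE 0.127, adjusted p = 1.69e-05) and 4.233-fold lower in Ly6Glow than in NL (log2 -2.08, SE 0.165, adjusted p = 9.86e-11). It was 2.546-fold lower in Ly6Glow than in Ly6Ghigh (log2 -1.35, SE 0.186, adjusted p = 2.23e-06). These calls held with library totals. Estimated counts were only 26 to 31 in Ly6Glow libraries, which limits the precision. Thus the amino acid synthesis genes *Asns* and *Psat1* moved in opposite directions against NL.

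*Slc3a2* (chr19:8706882-8723369) encodes the 4F2 heavy chain (CD98), which carries the light chains of several amino acid transporters to the cell surface. It stood at 150.7, 153.1 and 152 CPM in Ly6Ghigh, 209.5, 202 and 192.5 in Ly6Glow and 295.7, 276.9 and 290.7 in NL. The groups did not overlap, with NL highest. It was called 1.894-fold lower in Ly6Ghigh than in NL (log2 -0.92, SE 0.0377, adjusted p = 8.55e-16). In Ly6Glow it was -0.52 against NL (SE 0.0375, adjusted p = 2.23e-11), under the fold limit, and library totals moved this to -1.22, which was called. Between Ly6Glow and Ly6Ghigh it was 0.41 (SE 0.0392, adjusted p = 1.1e-08), under the limit.

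The light chain that pairs with *Slc3a2* in the cystine and glutamate exchanger, *Slc7a11*, differed far more between the MACRO groups. It had 325.9, 332.1 and 333 CPM in Ly6Ghigh, 1069, 1028 and 1107 in Ly6Glow and 928.8, 1025 and 941 in NL. The Ly6Ghigh libraries were apart from the others. *Slc7a11* was called higher in Ly6Glow than in Ly6Ghigh (log2 1.69, SE 0.0385, adjusted p = 5.44e-19) and lower in Ly6Ghigh than in NL (log2 -1.55, SE 0.0381, adjusted p = 1.14e-19). Between Ly6Glow and NL it was 0.15 (SE 0.0366, adjusted p = 0.000888), not called, and turned to -0.56 with library totals. Per FPKM of *Slc3a2* in the same library, *Slc7a11* reached 0.584 ± 0.00668 FPKM in Ly6Ghigh, 1.435 ± 0.0982 in Ly6Glow and 0.9 ± 0.0853 in NL (SD, n = 3).

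*Chac1* (chr2:119351242-119354326) encodes a glutathione-degrading enzyme that the PERK and ATF4 branch induces. Its level was low, at 22 to 45 estimated counts a library. The values were 2.768, 2.538 and 1.981 CPM in Ly6Ghigh, 1.787, 1.731 and 2.516 in Ly6Glow and 1.168, 1.414 and 1.262 in NL. NL libraries were below all MACRO libraries, which overlapped. It was called higher in Ly6Ghigh than in NL (log2 0.92, SE 0.21, adjusted p = 0.000384), a call that library totals ended at 0.46. It was also called in Ly6Glow against NL (log2 0.65, SE 0.231, adjusted p = 0.0127), but this turned to -0.05 with library totals, and without Ly6Glow replicate 3 it was 0.46 (adjusted p = 0.11).

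*Sesn2* (Gene ID 230784, chr4:132492804-132510456) encodes sestrin 2, a leucine-binding inhibitor of mTORC1 that ATF4, p53 and NRF2 induce, and gave the greatest rise from Ly6Ghigh to Ly6Glow among the 10 genes. Its CPM was 90.67, 96.52 and 90.68 in Ly6Ghigh, 184.4, 184.5 and 183.7 in Ly6Glow and 117.2, 99.7 and 111.3 in NL. The Ly6Glow libraries differed among themselves by less than 1 CPM and lay far above both other groups. Sesn2 was 1.988-fold higher in Ly6Glow than in Ly6Ghigh (log2 0.99, SE 0.0494, adjusted p = 1.77e-13), and the call held with library totals at 0.76. Against NL it was called in Ly6Glow (log2 0.75, SE 0.0475, adjusted p = 1.87e-12), a difference of 0.05 with library totals. In Ly6Ghigh it was -0.24 (SE 0.0493, adjusted p = 0.000127), under the fold limit, and with library totals -0.70, which was called. Between the MACRO groups, alveolar macrophage markers summed to 1573 to 1624 CPM in Ly6Ghigh and 350.6 to 370.9 in Ly6Glow, with 9 of 12 called lower in Ly6Glow. The granule genes of immature neutrophils summed to 29560 to 29980 and 8965 to 9236 CPM, with 9 of 9 called lower in Ly6Glow. The 5 plasma cell markers summed to 161.6 to 175.2 and 39.15 to 44.67 CPM, and all were called lower. The part of these differences in those of *Sesn2* and *Psat1* was not tested.

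**Figure D3:**
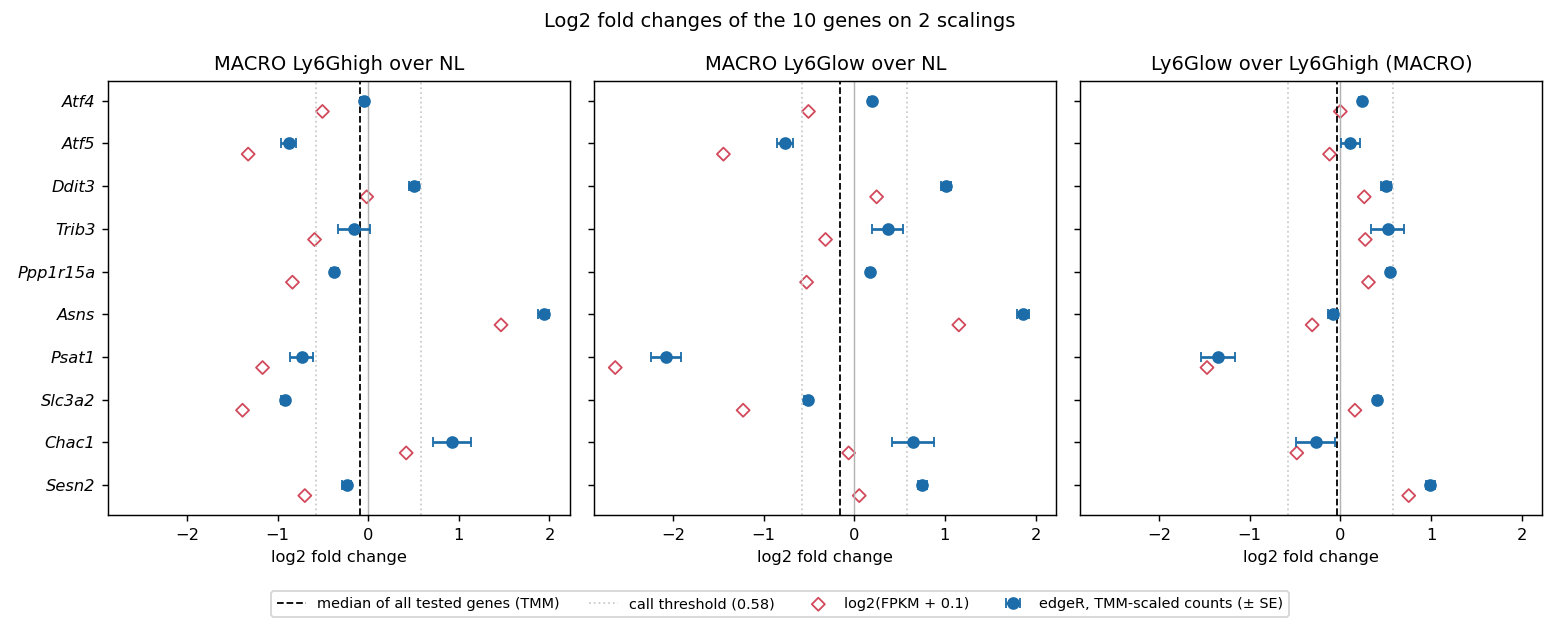
Log2 fold changes of the 10 genes in 3 comparisons, from edgeR on TMM-scaled counts with SE (filled) and from log2(FPKM + 0.1) (open). The open symbols lie to the left of the filled ones in the comparisons with NL, and *Asns* and *Psat1* stay on their side of 0 in both of those comparisons.

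The level of each gene relative to *Atf4* in the same library does not depend on scaling between libraries. Per 100 FPKM of *Atf4*, *Asns* was 25.08 ± 0.746 FPKM in Ly6Ghigh, 20.19 ± 0.329 in Ly6Glow and 6.374 ± 0.637 in NL (SD, n = 3), with no overlap between groups. *Sesn2* was 31.02 ± 0.631, 52.4 ± 1.51 and 35.57 ± 2.46 FPKM in the same order, highest in each Ly6Glow library. *Ddit3* was 31.59 ± 1.66, 37.93 ± 1.76 and 22.51 ± 1.02, so that each MACRO library lay above each NL library in this ratio. In Ly6Ghigh this reflects *Atf4*, at a mean of 108.5 FPKM against 154.1 in NL. *Ddit3* itself had 34.26 FPKM in Ly6Ghigh and 34.68 in NL, which overlapped. *Psat1* reached 2.353 ± 0.339, 0.788 ± 0.102 and 3.795 ± 0.503, and *Slc3a2* 54.03 ± 1.53, 60.48 ± 4.05 and 99.63 ± 2.72 FPKM. *Ppp1r15a* stood at 98.14 ± 2.67 in Ly6Ghigh, below 121.7 ± 2.36 in Ly6Glow and 123.4 ± 3.5 in NL, which overlapped. *Atf5* was 4.569 ± 0.492, 4.191 ± 0.296 and 8.142 ± 0.579, *Chac1* 1.395 ± 0.21, 0.979 ± 0.201 and 0.716 ± 0.0777, and *Trib3* 1.028 ± 0.209, 1.249 ± 0.0856 and 1.112 ± 0.0592. The *Trib3* libraries of the 3 groups overlapped on this scale.

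**Figure D4:**
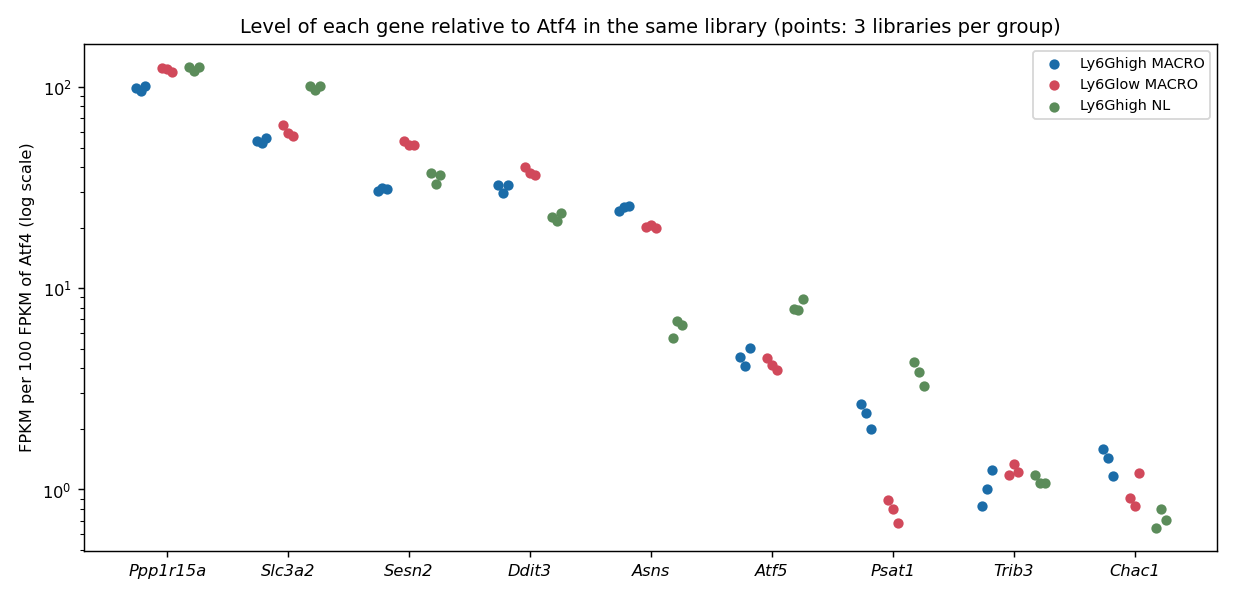
FPKM of each gene per 100 FPKM of *Atf4* in the same library (log scale), 3 libraries per group. The *Asns* points of NL lie below all MACRO points, the *Psat1* points of Ly6Glow lie below those of the other groups and the *Sesn2* points of Ly6Glow lie above them.

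Ranked per length by mean FPKM, *Atf4* (108.5) and *Ppp1r15a* (106.4) led in Ly6Ghigh without a difference beyond their spread, followed by *Slc3a2* at 58.61, *Ddit3* (34.26) and *Sesn2* (33.67), which overlapped, and *Asns* at 27.21. In Ly6Glow *Ppp1r15a* (132) was above *Atf4*, and *Sesn2* at 56.84 was above *Ddit3* at 41.13 and *Asns* at 21.91. In NL *Ppp1r15a* stood at 190.2, and *Atf4* (154.1) and *Slc3a2* (153.5) overlapped. *Asns* was there at 9.82 FPKM, below *Atf5* at 12.55, whereas in both MACRO groups *Asns* was well above *Atf5* (4.95 and 4.54 FPKM). *Trib3*, *Chac1* and *Psat1* were between 0.853 and 5.85 FPKM in every group. Neighbours among them overlapped in Ly6Glow, and *Chac1* and *Trib3* overlapped in Ly6Ghigh.

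The other genes of the pathway were read from 10 lists, in which 92 genes were tested. Of these, 52 were called between Ly6Ghigh and NL (19 higher, 33 lower), 71 between Ly6Glow and NL (25 higher, 46 lower) and 36 between Ly6Glow and Ly6Ghigh (8 higher, 28 lower), where 62.9%, 69.5% and 25.2% of all tested genes were called. Of all tested genes 26.3% were called higher and 36.6% lower in the first of these comparisons. It was 28.7% and 40.8% in the second and 9.29% and 15.9% in the third. Counts in the lists below are to be read against these shares, and a count near them is not a result about the list. With library totals the splits of the 92 genes were 10 higher and 49 lower, 8 and 59, and 5 and 39. Of 8 genes for the eIF2 alpha kinases and their regulators, 3 were called higher and 3 lower in Ly6Ghigh against NL, 3 and 4 in Ly6Glow against NL, and 0 and 2 in Ly6Glow against Ly6Ghigh, and with library totals 1 and 5, 0 and 5, and 0 and 3. Among the 4 kinases that phosphorylate eIF2 alpha, *Eif2ak1* (HRI, activated by heme loss and mitochondrial stress) was higher than in NL by 1.29 in Ly6Ghigh and by 1.17 in Ly6Glow (log2, SE 0.0469 and 0.0487), the second of which was 0.47 and not called with library totals. *Eif2ak4* (GCN2, which senses uncharged tRNA) was called lower by -1.26 and -2.05, and by -0.79 in Ly6Glow against Ly6Ghigh, the last at -0.49 and not called on log2(FPKM + 1). *Eif2ak3* (PERK, of the endoplasmic reticulum) was called at 0.93 in Ly6Ghigh and 0.58 in Ly6Glow against NL, but with library totals the first was 0.46 and not called and the second turned to -0.12. *Eif2ak2* (PKR, activated by double-stranded RNA) was called at -0.64 in Ly6Ghigh, and in Ly6Glow was -0.41 and not called, but was called there at -1.11 with library totals and at -0.96 on log2(FPKM + 1). *Impact*, an inhibitor of GCN2, was lower in both, at -1.16 and -0.78. *Dele1*, which relays mitochondrial stress to HRI, was called lower in Ly6Glow than in NL (-1.21) and than in Ly6Ghigh (-0.80).

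The next list held 11 genes, for eIF2, its exchange factor eIF2B, the phosphatase and *Eif2a*, whose product eIF2A is no subunit of eIF2. Of these 11, 3 were called higher and 1 lower in Ly6Ghigh against NL, 3 and 4 in Ly6Glow against NL, and 0 and 5 in Ly6Glow against Ly6Ghigh. With library totals this became 3 and 4, 1 and 8, and 0 and 6. *Ppp1r15b*, the constitutive counterpart of *Ppp1r15a*, rose by 1.23 and 1.47 (log2, SE 0.0328 and 0.033) against NL, from a mean of 320.2 CPM in NL to 750.4 in Ly6Ghigh and 889 in Ly6Glow, while *Ppp1r15a* was called in neither group on this scale. The phosphatase 1 catalytic subunit *Ppp1ca* was called higher by 1.34 and 1.17, the second at 0.47 and not called with library totals. The eIF2B subunit gene *Eif2b3* was called lower by -1.68 and -2.84 and *Eif2b2* higher by 1.39 and 1.04, the latter at 0.34 and not called in Ly6Glow with library totals. *Eif2a*, *Eif2b3* and *Eif2b5* were called lower in Ly6Glow than in Ly6Ghigh, at -0.95, -1.16 and -0.84, of which *Eif2b3* was -0.52 and not called on log2(FPKM + 1).

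Among 8 leucine zipper partners, *Atf3*, a repressor that ATF4 induces, was lower in both MACRO groups than in NL, at -1.53 (SE 0.0338) and -1.46 (SE 0.0344), with a mean of 351.8 CPM in NL and of 121.9 and 127.8 in Ly6Ghigh and Ly6Glow. *Atf3* is also on the immediate-early list given above. *Jdp2*, a repressor of AP-1 sites, and *Cebpb*, a C/EBP partner of ATF4, were called higher in Ly6Glow than in Ly6Ghigh, at 1.25 and 0.89, while *Batf3* was lower at -0.998 from about 1 CPM. In that comparison 3 of 8 were called higher and 1 lower, and against NL 2 and 1 in Ly6Ghigh and 5 and 1 in Ly6Glow, the last of which was 2 and 3 with library totals. *Batf* was higher than in NL at 1.07 and 1.41 and *Cebpd* at 0.73 and 0.60, but with library totals *Cebpd* was 0.27 and not called in Ly6Ghigh and turned to -0.10 in Ly6Glow, and on log2(FPKM + 1) *Batf* was 0.57 and not called in Ly6Ghigh.

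The amino acid synthesis and one-carbon list had no gene called higher in any comparison. Of its 9 tested genes 5 were called lower in Ly6Ghigh against NL, 7 in Ly6Glow against NL and 4 in Ly6Glow against Ly6Ghigh, and with library totals 6, 8 and 5. *Phgdh*, the first enzyme of serine synthesis and thus upstream of *Psat1*, went from a mean of 45.43 CPM in NL to 9.661 in Ly6Ghigh and 2.016 in Ly6Glow (log2 -2.23, SE 0.0765, and -4.49, SE 0.113). *Shmt2*, the mitochondrial enzyme that turns serine into glycine, was called lower at -0.96, -2.11 and, between the MACRO groups, -1.14. *Mthfd2*, of mitochondrial folate metabolism, was called lower in Ly6Glow than in Ly6Ghigh (-1.38) and was 0.53 in Ly6Ghigh against NL, not called. *Gpt2* (alanine synthesis) was called lower than NL at -1.07 in Ly6Ghigh, a call lost at -0.53 on log2(FPKM + 1), and *Aldh18a1* (proline synthesis) at -1.27 in Ly6Glow. The list median was -0.80, -1.10 and -0.47, beside -0.09, -0.16 and -0.04 for all tested genes.

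Of 8 transporter genes tested, 6 were called lower and 1 higher in Ly6Ghigh against NL and 5 lower and 2 higher in Ly6Glow against NL, and library totals left 6 and 5 lower with 0 higher. *Slc6a9* (glycine uptake), *Slc43a1* and *Slc1a4* (neutral amino acid transport) were called lower in Ly6Ghigh than in NL at -3.00, -2.99 and -2.11, from 5.874, 1.34 and 6.42 CPM in NL. *Slc7a1*, the arginine and lysine carrier, was at -2.43 in Ly6Glow against NL and at -1.03 against Ly6Ghigh. *Slc38a2*, the carrier of small neutral amino acids, was called higher in Ly6Glow than in Ly6Ghigh at 0.69, and was 0.46 and not called with library totals. Thus *Slc7a11* and *Slc38a2* were the 2 genes of the list called higher between the MACRO groups, and with library totals *Slc7a11* alone kept its call.

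Of 12 aminoacyl-tRNA synthetases, 5 were called lower and 2 higher in Ly6Ghigh against NL, where 36.6% and 26.3% of all tested genes were. In Ly6Glow against NL 7 and 2 were called, beside 40.8% and 28.7% of all tested genes. In Ly6Glow against Ly6Ghigh it was 4 and 0, beside 15.9% and 9.29%. Library totals gave 6, 10 and 6 lower with none higher. *Wars*, which interferon also induces, *Iars* and *Eprs* led with -2.22, -1.69 and -1.23 in Ly6Ghigh against NL and -2.56, -2.64 and -1.83 in Ly6Glow. *Iars*, *Tars* and *Lars* were called lower in Ly6Glow than in Ly6Ghigh, at -0.95, -0.89 and -0.77. The motif TGATGNAA was held by 5 of the 8 synthetase genes with a promoter entry, *Aars*, *Gars*, *Iars*, *Tars* and *Yars*. Among the other genes named here *Atf3*, *Jdp2*, *Slc1a4* and *Vldlr* held it. Among the genes with this motif, *Iars* and *Tars* were lower in both MACRO groups than in NL and *Asns* was higher. The values of *Aars*, *Gars* and *Yars* are not given here, so this does not describe the genes with the motif as a set.

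**Figure D5:**
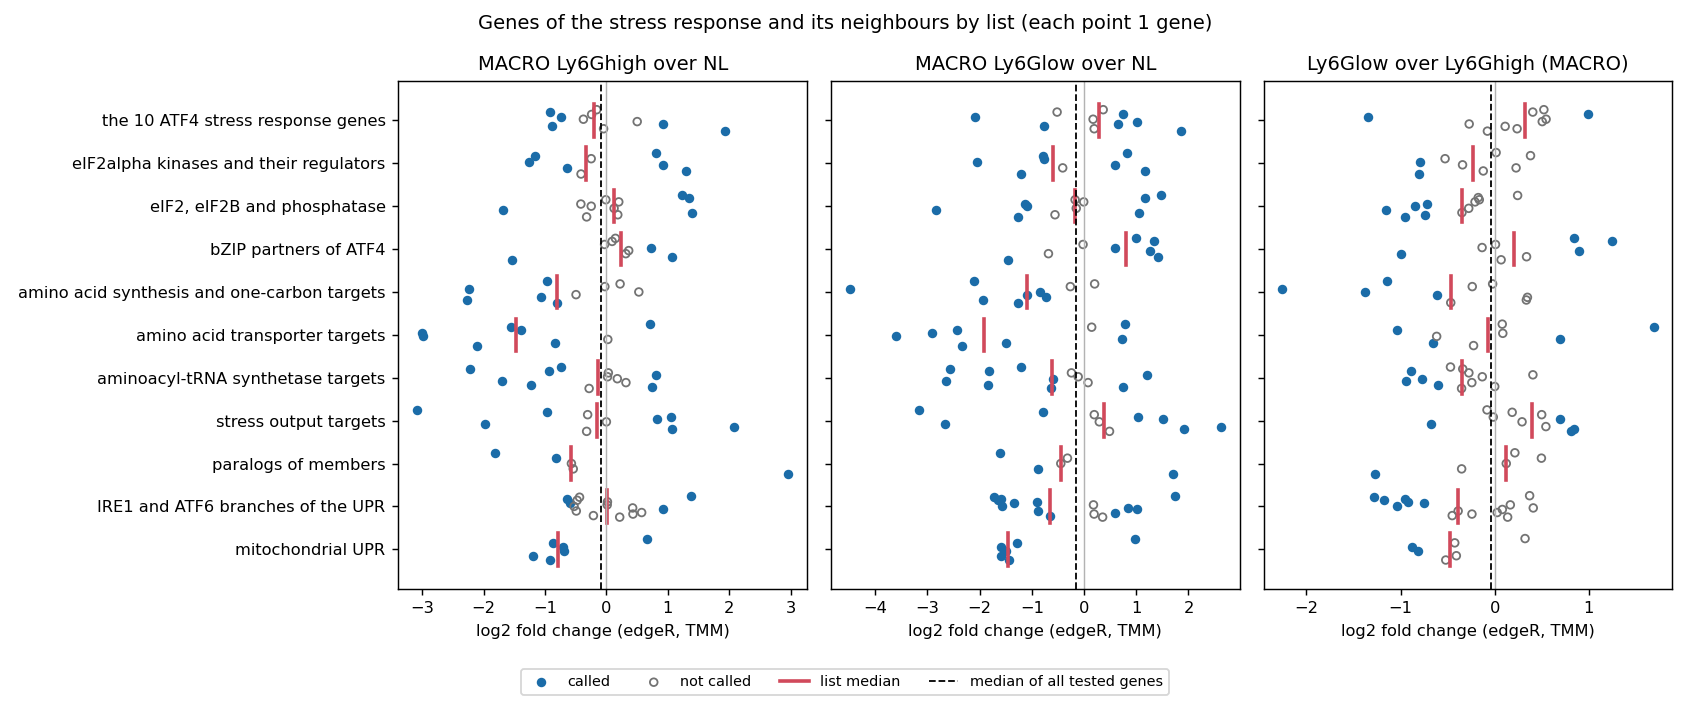
Log2 fold changes (TMM scale) of the 10 genes and of 10 further lists in 3 comparisons, with 1 point per gene, called genes filled and list medians in red. The medians of the transporter, amino acid synthesis and mitochondrial lists lie left of the median of all genes in the comparisons with NL.

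Of 10 stress output genes tested, 4 were called higher and 3 lower in each MACRO group against NL, and 3 and 1 in Ly6Glow against Ly6Ghigh. With library totals this became 3 and 5 in Ly6Ghigh, 3 and 3 in Ly6Glow, and 1 and 1 between them. *Eif4ebp1*, which encodes an inhibitor of cap-dependent translation, rose by 2.08 (SE 0.061) and 2.63 (SE 0.0601) against NL, from a mean of 20.48 CPM to 86.69 and 126.5. *Vldlr*, a lipoprotein receptor, was called lower at -3.09 and -3.17 and *Gdf15*, a stress-induced cytokine, at -1.98 and -2.66. *Ddit4*, an mTORC1 inhibitor like *Sesn2* in effect, was called higher in Ly6Glow than in Ly6Ghigh at 0.84. *Cdkn1a* (p21) and *Map1lc3b* (autophagy) were called there at 0.81 and 0.69, calls that library totals ended at 0.57 and 0.46.

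Of 5 paralogs of the members, 1 was called higher and 2 lower in each MACRO group against NL and 0 and 1 in Ly6Glow against Ly6Ghigh, and with library totals 1 and 4 in each and 0 and 2. *Chac2* was called higher in Ly6Ghigh than in NL (log2 2.97, SE 0.216, mean 6.051 against 0.77 CPM) and lower in Ly6Glow than in Ly6Ghigh (-1.27, SE 0.194). *Chac1* was not called in that last comparison (-0.27, SE 0.215, adjusted p = 0.302). *Trib2* (-1.82 and -1.60) was called lower than in NL in both MACRO groups, *Trib1* at -0.82 in Ly6Ghigh and *Sesn1* at -0.89 in Ly6Glow. In the IRE1 and ATF6 branches of the unfolded protein response, 2 of 15 genes were called higher and 2 lower in Ly6Ghigh against NL, 4 and 8 in Ly6Glow against NL, and 0 and 6 in Ly6Glow against Ly6Ghigh. With library totals this became 1 and 7, 1 and 8, and 0 and 8. *Xbp1*, the effector of IRE1, was called higher than in NL at 1.37 and 1.74. *Edem1*, of protein disposal from the endoplasmic reticulum, was called higher at 0.93 and 1.01, calls that library totals ended at 0.47 and 0.31. The chaperone genes *Sdf2l1*, *Pdia4* and *Hsp90b1* were called lower in Ly6Glow than in Ly6Ghigh at -1.29, -1.18 and -1.04. The plasma cell, immature granule and alveolar macrophage markers given above moved the same way, and their part in these differences was not tested. In the mitochondrial list 5 of 6 genes were called lower and 1 higher in each MACRO group against NL, with *Hspa9* at -1.19 and -1.60, and with library totals 5 lower and 0 higher. In Ly6Glow against Ly6Ghigh 2 were called lower and 0 higher, and 5 lower with library totals. The 2 on the TMM scale were *Hspe1* and *Hspd1*, at -0.88 and -0.81.

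Likeness to *Atf4* was measured as the distance between the log2 fold changes of Ly6Ghigh and Ly6Glow against NL, over 3 group means, among 7397 genes with a mean of at least 10 CPM. The closest were *Eif1a* (distance 0.0148), *Fos* (0.0246), *Skp1a* (0.0319), *Wsb2* (0.0391) and *Kif1b* (0.0395), and 58 genes lay within 0.1. *Fos* is on the immediate-early list. None of the other 9 members was among the 5, but *Trib3*, *Chac1* and *Psat1* lay under 10 CPM and were not searched. With 5 genes listed of 7397, the absence of the remaining members is not a result about them.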

How the data were processed

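Poly(A) RNA of 9 libraries (3 groups of 3, taken from the titles and treatment labels) had been sequenced as paired ends from libraries described in the labels as strand-specific. The authors deposited, per gene and library, an estimated count (not normalized, 37.9% whole numbers) and an FPKM value (normalized by the authors for transcript length and fragments). The labels name mm10 as the genome build, which is GRCm38. The aligner, the counter and its use of strand are not given in the sources used here. The description field of the NL libraries names the Ly6Ghigh group only, so their group rests on title and treatment.

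Of 22064 genes, 3739 were blank and 18325 had values, and 14108 passed filterByExpr by group. Estimated counts were rounded and tested in R 4.3.3 with edgeR 4.0.16 (TMM, quasi-likelihood, all 9 libraries in 1 fit, Benjamini-Hochberg over all tested genes). SE is the log2 fold change divided by the square root of F. The common biological coefficient of variation was 0.0346, which covers the spread between these libraries. The scripts were tested on simulated data. Every pair of replicates differed beyond sampling noise (chi-square per degree of freedom 1.395 to 5.358), so no library was a copy of another. Libraries prepared again from 1 RNA or 1 pool could differ in this way too, so separate mice are not shown by it. Alternatives used DESeq2 1.42.0, limma 3.58.1 on log2 FPKM, library totals (added after seeing the data), other filters and thresholds, a replicate block and leaving out each library.

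Members and lists were chosen with earlier results of these data known. Named genes were every member, *Slc7a11*, *Atf3*, the 4 eIF2 alpha kinases, *Ppp1r15b*, at most 3 called genes per list and comparison by size of change with at least 1 CPM in the higher group, and the 5 genes closest to *Atf4*. Other values of genes so named are given beside them. *Aldh1l2*, *Slc7a3*, *Fgf21* and *Stc2* did not pass the filter.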

Additional observations from a re-analysis of the deposited data

How the results depend on the processing

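Of 540 alternative values for the 10 genes, 485 kept direction and call, 19 gained the call, 13 lost it and 23 changed direction. The 540 include the refits without 1 library, which share most of their data with the main fit. All 23 direction changes came from library totals and the 3 FPKM settings, so the 485 do not measure stability to scaling. With library totals, and on log2(FPKM + 1), log2(FPKM + 0.1) and log2(FPKM + 1) with FPKM of at least 1 in 3 libraries in turn, Ly6Glow against NL gave -0.51, -0.50, -0.51 and -0.50 for *Atf4*, -0.33, -0.20, -0.32 and -0.20 for *Trib3*, -0.048, -0.032, -0.062 and -0.032 for *Chac1*, and -0.53, -0.52, -0.53 and -0.52 for *Ppp1r15a*. Ly6Glow against Ly6Ghigh gave -0.12, -0.10, -0.12 and -0.10 for *Atf5*, and Ly6Ghigh against NL gave -0.0169, -0.0174 and -0.0169 for *Ddit3* on the 3 FPKM settings. The direction change under library totals follows from the TMM factors. With DESeq2's size factors, and with DESeq2's test, 4 members were called between Ly6Glow and Ly6Ghigh, *Trib3* and *Ppp1r15a* being added. With no fold limit 8, 10 and 7 members passed in the 3 comparisons in the order used above, beside 84.6%, 86.8% and 55.8% of all genes, and 79 and 74 pathway genes passed between Ly6Ghigh and NL and between Ly6Glow and Ly6Ghigh. With a limit of 1, it was 1, 3 and 1 members and 29 and 11 pathway genes. The share of all tested genes is not given for this limit or for the DESeq2 settings, so these counts show only how the calls depend on the setting. Leaving out 1 library gave 5, 5 to 6 and 2 to 3 members, and 51 to 54, 68 to 71 and 34 to 36 pathway genes.

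Replicate numbers are shared between groups, but same-numbered libraries did not deviate together (correlations -0.068 to 0.077), so they were not treated as pairs. With the replicate block 5, 6 and 2 members and 52, 71 and 36 pathway genes were called, as without it, and no member's call changed. The adjusted p of *Trib3* in Ly6Glow against NL, a gene under the fold limit, was 0.068 with the block. Depth limits *Trib3*, *Chac1* and *Psat1*, at 22 to 242 estimated counts a library.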
